A study of Mus musculus with 48 samples.

Results

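Heart lymphatic endothelial cells (LECs) from mice given angiotensin II (angII) together with VEGFCc156s were compared with heart LECs from mice given angII alone. The comparison rests on 8 of the 48 libraries of the series, 3 of the angII+VEGFC group and 5 of the angII group, which were taken by the tissue, cell type and treatment in the labels. All mice were male C57BL/6 Prox1-eGFP mice, in which an eGFP cassette follows the coding sequence of Prox1, so every group, the controls included, carries this knock-in allele. The angII group received angiotensin II by subcutaneous minipump. The angII+VEGFC group received angiotensin II and VEGFCc156s at the same time, and the 4 heart LEC libraries of control mice (ctrl), which received neither peptide, served to give the level without angII. Cells were isolated 5 to 6 weeks after implantation of the pumps and sorted as living cells that carried CD31 and eGFP but not the leukocyte antigen CD45.2, and each library comes from another mouse. The labels give ages of 8, 14, 16, 16 and 14 months for the angII mice and of 15, 8 and 8 months for the angII+VEGFC mice, so the groups were uneven in age, and 8 to 16 months for the ctrl mice. Batch 1, the first sequencing set, holds 3 angII libraries and 1 angII+VEGFC library, and batch 2 holds 2 of each.

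VEGF-C is the main growth factor of lymphatic vessels. It signals through VEGFR-3, the product of Flt4, which in adult tissue is found mostly on LECs. It also signals through VEGFR-2 (Kdr) on blood vessels, whose transcript the heart LECs held as well. VEGFCc156s is a recombinant VEGF-C in which a cysteine is exchanged for a serine, and it acts on VEGFR-3 with little activity on VEGFR-2. Cardiac lymphatic vessels drain fluid, leukocytes and inflammatory mediators from the heart muscle, and the comparison asks which transcripts of their endothelium differ when this factor is given during a chronic angII infusion.

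The labelled cell type was checked against its defining markers. Prox1, the transcription factor that sets lymphatic identity (GRCm38 chromosome 1, 190118035 to 190170714, minus strand), lay at 97.6 to 230 TPM (transcript abundance scaled to 1 common total per library) in the 8 libraries and at 1.06 to 5.72 TPM in the 12 heart blood endothelial cell (BEC) libraries. Lyve1, a hyaluronan receptor of lymphatic capillaries, lay at 1019 to 1587 TPM against 27.4 to 81.1 TPM, and Flt4 at 333 to 642 TPM against 25.4 to 64.4 TPM. The lowest LEC library thus had 17.1, 12.6 and 5.17 times the level of the highest BEC library for Prox1, Lyve1 and Flt4. Since Prox1 drives the eGFP used in the sort, its level is no independent check.

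In this comparison 0 of 26803 genes passed an adjusted p of 0.05 (0% of the genes tested), and the smallest adjusted p in limma was 0.19. Lymphatic identity genes overlapped between the groups, with a median change of 0.06 on the log2 scale. At an unadjusted p under 0.05, 2614 genes (9.75%) were lower and 292 (1.09%) were higher with VEGFCc156s. Among the genes with lower values were single chemokines and interferon response genes such as Cxcl10 and Oas2, MHC class II genes and fibrillar collagens. The apelin ligand and receptor, and markers of blood endothelium, pericytes, heart muscle and red cells, were also among them. Among those with higher values were Ephx2, Ltbp1, Fn1, Adm, Gja4 and Foxc2, most of which LECs carry at a higher level than BECs. The words lower and higher describe the estimate throughout, since no gene passed the adjusted threshold.

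The libraries of the groups differed before any single gene was considered. Genes reaching 1 TPM numbered 25896, 22814, 24428, 21601 and 19957 in the 5 angII libraries and 16756, 18884 and 18425 in the 3 angII+VEGFC libraries, so the groups did not overlap, while the ctrl libraries spanned 16131 to 24086. The difference in means, -4918 genes, had a two-sided exact permutation p of 0.0357 (adjusted p = 0.143 over 4 library measures, smallest possible p 0.0179). It was -4543 within batch 1 and -4617 within batch 2. At 100 TPM or more the groups held similar numbers of genes, 1480 to 1663 and 1514 to 1691. The share of TPM from mitochondrially encoded genes was 8.75% and 5.75% in angII+VEGFC libraries 1 and 3 but 2.43% in library 2 and 2.58% to 4.71% in the angII group (exact permutation adjusted p = 0.429).

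The shift between the groups depended on the level of a gene. The median change, as angII+VEGFC minus angII on log2(TPM + 1), was -0.37 over all genes tested. It was -0.68 for the 8091 genes with a mean of 1 to 3 TPM, -0.64 at 3 to 10 TPM, -0.16 at 10 to 30 TPM, -0.01 at 30 to 100 TPM and 0.07 at 100 TPM or more. With quantile normalisation the median over all genes was 0.01, and 944 genes were lower and 878 higher at an unadjusted p under 0.05. With this number of detected genes as a covariate, 895 were lower and 648 higher. Among the 8554 genes with a mean of 10 TPM or more, 4.97% were lower and 2.35% higher. The count of each gene list is set beside the 9.75% lower and 1.09% higher of all genes, and its median beside -0.37. These shares also depended on level, with 13.3% lower and 0.396% higher at 1 to 3 TPM. At 100 TPM or more 3.2% were lower and 4.39% higher. For a list of genes at a high level, the values over all genes are therefore not a background matched for level.

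Markers of other cells also differed between the groups. BECs are the other CD31-positive cells of the heart, and the summed level of 17 blood endothelial markers was 6494, 9531, 4568, 5194 and 10240.3 TPM in the angII libraries, 3651, 3514 and 3263 TPM in the angII+VEGFC libraries, and 2623 to 4269 TPM in the ctrl libraries. The angII libraries were all above the other groups, and heart BECs of ctrl mice had a median of 20743 TPM. Of the 17 markers, 8 (47.1%, against 9.75% of all genes) were lower at an unadjusted p under 0.05 and 0 higher, with a median change of -0.71. Fabp4, a fatty acid carrier of capillaries, lay at 2649, 3970, 1662, 1935 and 4914 TPM with angII and at 974.99, 1157 and 718 TPM with VEGFCc156s added (log2 change -1.26 ± 0.37 (SE), adjusted p = 0.41 in limma). Sox17, a transcription factor of arteries, lay at 82.3 to 378 TPM and at 26.4 to 81.5 TPM. Both genes were without overlap between the groups, and in heart BECs of the same mice their changes were 0.02 and -0.10.

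Erythroid transcripts summed to 2063 to 6531 TPM in the angII libraries and to 12.2 to 575 TPM in the angII+VEGFC libraries. The ctrl libraries were split, with 2186 and 2082 TPM in batch 1 and 9.92 and 6.98 TPM in batch 2. The globin genes are near-identical copies, so single members are uncertain. Cardiomyocyte markers summed to 369.5 to 1794 TPM against 372 to 569 TPM, with 4 of 15 lower (26.7%, against 9.75% of all genes). Pericyte and smooth muscle markers summed to 156 to 992 TPM against 104 to 277 TPM, with 3 of 12 lower (25%, against 9.75%). Fibroblast markers summed to 1303 to 3069 TPM and 1311 to 1959.7 TPM. Of these 14 markers 3 were lower and 1 higher (21.4% and 7.14%, against 9.75% and 1.09% of all genes). Mesothelial markers stood at 280.2 TPM in angII library 1 and at 2.63 to 25.2 TPM in the other 7 libraries, with 1 of 7 lower (14.3%, against 9.75%). Leukocyte markers were mixed, at 31.1 to 286 TPM and 19.9 to 387 TPM, with 1 of 12 lower (8.33%, against 9.75% of all genes). The 10 Schwann cell and adipocyte markers summed to at most 40.8 TPM. Only 3 of them were tested, of which 2 were lower (66.7%, against 9.75%). The part of these cells in the changes below was not tested. In sorted bulk samples, fewer cells of a type and less RNA per cell cannot be told apart.

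**Figure D1:**
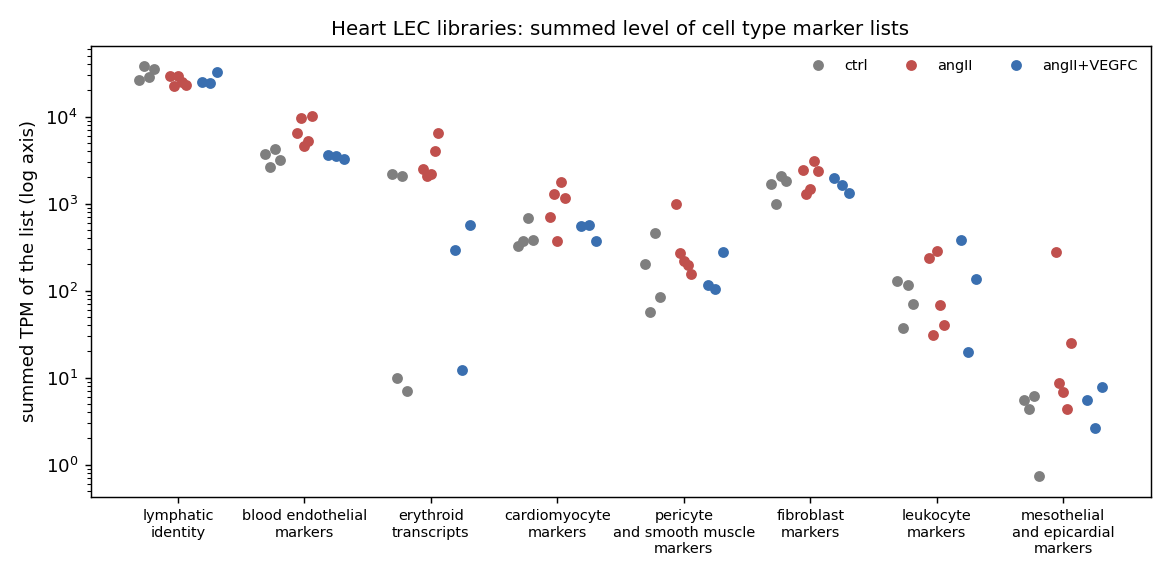
Summed TPM (log axis) of 8 marker lists in each heart LEC library, with 1 point per library and the groups ctrl (4 libraries), angII (5) and angII+VEGFC (3) side by side. The lymphatic sums overlap between the groups, while blood endothelial markers reach 4568 to 10240.3 TPM with angII and 3263 to 3651 TPM in all angII+VEGFC libraries, and erythroid transcripts are also without overlap.

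The direction of a change followed how a gene was divided between LECs and BECs in ctrl hearts, which are in neither group compared. Genes were binned by the difference of their mean log2(TPM + 1) between ctrl LECs and ctrl BECs. Of 164 genes that were lower in LECs by more than 3, 78 (47.6%) were lower with VEGFCc156s at an unadjusted p under 0.05, 0 were higher, and the median change was -1.34. Of 112 genes that were higher in LECs by 3 or more, 0 were lower and 19 (17%) were higher, with a median of 0.24. The 22893 genes that differed by less than 1 had 9.35% lower and 0.93% higher. The order was kept with quantile normalisation, with medians of -1.03 and 0.25 in the outer bins. The same BEC-enriched genes had a median change of 0.02 in heart BECs. Ephx2, soluble epoxide hydrolase, which inactivates epoxy fatty acids, had the smallest p among the higher LEC-enriched genes and was picked after its values were seen (chromosome 14, 66084374 to 66124500). Its level was 25.4, 122, 136, 239 and 82.4 TPM with angII and 489.9, 309.7 and 215 TPM with VEGFCc156s added. The groups overlapped through a single pair of libraries, and the log2 change was 2.10 ± 0.34 (SE) with an adjusted p of 0.19 in limma.

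**Figure D2:**
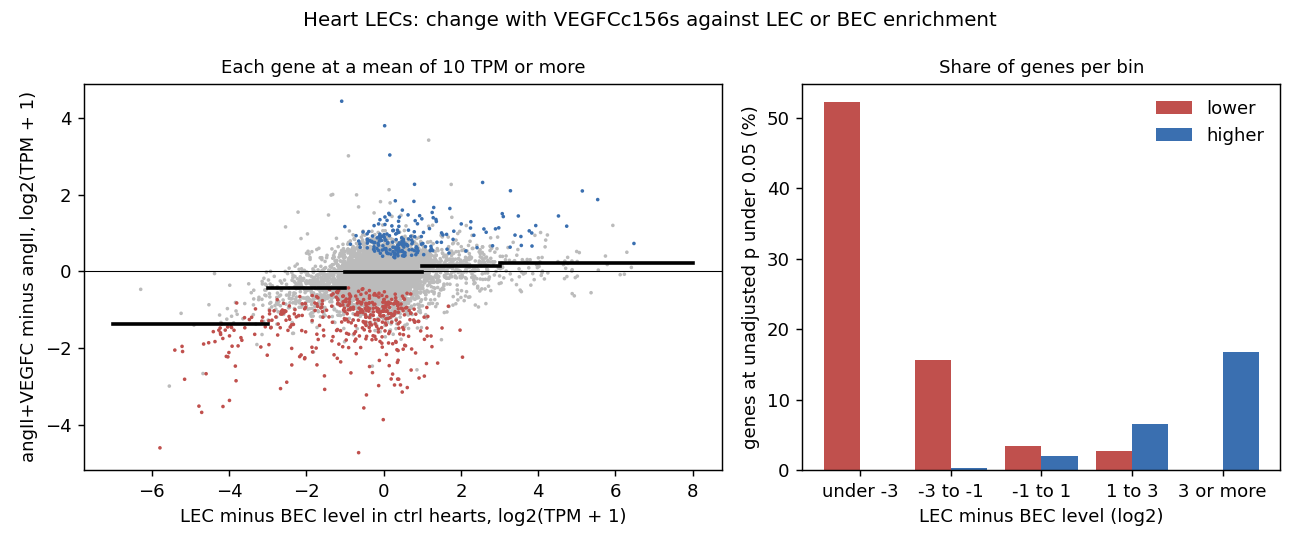
Left, each gene at a mean of 10 TPM or more by its LEC minus BEC level in ctrl hearts (x axis, log2(TPM + 1)) and its change with VEGFCc156s added to angII (y axis, same scale), coloured where the unadjusted p is under 0.05, with black lines at the median of each bin. Right, the percentage of genes per bin that were lower or higher at that p: from 52.2% lower and 0% higher in the most BEC-enriched bin to 0% lower and 16.8% higher in the most LEC-enriched bin. Genes low in ctrl LECs can reach the mean of 10 TPM through the angII libraries, which favours lower genes in the BEC-enriched bins.

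Values without overlap between the 5 angII and 3 angII+VEGFC libraries were found in 1964 lower genes (7.33%) and 221 higher genes (0.825%). The 10 lower genes named here had the smallest p among those with a mean of at least 10 TPM in the angII group, leaving out predicted genes with a symbol of the Gm or Rik type, some of which had smaller p. Among them, Tmem255b, Arc, Cox7a1, Col1a2, Vtn and Cdr2 were also higher in BECs than in LECs of ctrl hearts by more than 1 log2 unit. Arc, an immediate early gene, lay at 24.8, 24.2, 11.6, 17.0 and 19.4 TPM with angII and at 0, 2.54 and 4.60 TPM with VEGFCc156s added (log2 change -3.37, adjusted p = 0.27 in limma). Cox7a1, the muscle form of a cytochrome c oxidase subunit, lay at 29.8 to 87.9 TPM and at 10.9 to 20.4 TPM. Vtn, vitronectin, lay at 56.0 TPM in angII library 1, at 10.9 to 19.5 TPM in the other angII libraries and at 0 to 4.10 TPM with VEGFCc156s added. Zfp119a (15.7 ± 4.22 and 4.53 ± 2.06 TPM, mean ± SD) and Cryl1 (14.6 ± 6.28 and 2.49 ± 2.14 TPM) lay within 0.5 log2 units between ctrl LECs and BECs. Rpl31-ps9 and Selenok-ps1 complete the 10 and, with Gm5850, may share reads with near-identical copies, so their values are uncertain. In a fit of the 8 libraries alone, Vtn, Arc, Art3, Rpl31-ps9 and the small nuclear RNA Gm24407 passed an adjusted p of 0.05, and no other gene did. Rpl31-ps9 also passed it with 1 surrogate variable added.

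By the same rule the higher genes were Rai2, Atp1b3, Tmem214, Nsg1, Pdgfra, Wdr43, Tpra1, Itga3, Dcaf11 and Tmem167b. Rai2 lay at 6.95, 8.34, 30.3, 30.05 and 20.2 TPM with angII and at 34.0, 53.3 and 38.7 TPM with VEGFCc156s added, and ctrl libraries were at 39.6 to 47.2 TPM (log2 change 1.64 ± 0.44, adjusted p = 0.41 in limma). Nsg1, an endosomal protein that LECs carried well above BECs, lay at 393, 421, 654, 680.5 and 442 TPM and at 826, 700.5 and 745 TPM. Atp1b3, a subunit of the sodium pump, had 325.5 ± 85.2 and 447 ± 25.8 TPM, and Itga3, a laminin-binding integrin chain, 16.7 ± 4.79 and 36.9 ± 15.8 TPM. Their estimates stayed above 0 in every alternative tried and in both batches, at 0.36 to 1.57 within batches for Nsg1, Atp1b3 and Itga3. These genes were picked for values without overlap, which fixes a positive difference within each batch in advance. The constant sign is therefore no separate support.

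Of the 18 genes of the lymphatic identity list 0 were lower or higher at an unadjusted p under 0.05, and the median change was 0.06 (0.03 with quantile normalisation). Prox1 lay at 161, 97.6, 230, 163 and 143 TPM with angII and at 176, 179 and 210.5 TPM with VEGFCc156s added. Lyve1 lay at 1329 ± 220.0 and 1499 ± 83.5 TPM (chromosome 7, 110850607 to 110863239), Flt4 at 441 ± 111 and 532 ± 97.0 TPM (chromosome 11, 49609263 to 49652739), and Pdpn, podoplanin, at 66.9 ± 11.6 and 68.8 ± 13.5 TPM. The groups overlapped in all 4 genes. The 95% interval of the change was -0.32 to 0.84 for Prox1, -0.32 to 0.48 for Lyve1, -0.33 to 0.80 for Flt4 and -0.67 to 0.60 for Pdpn on the log2 scale. Changes within these intervals, in either direction, were thus not excluded.

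**Figure D3:**
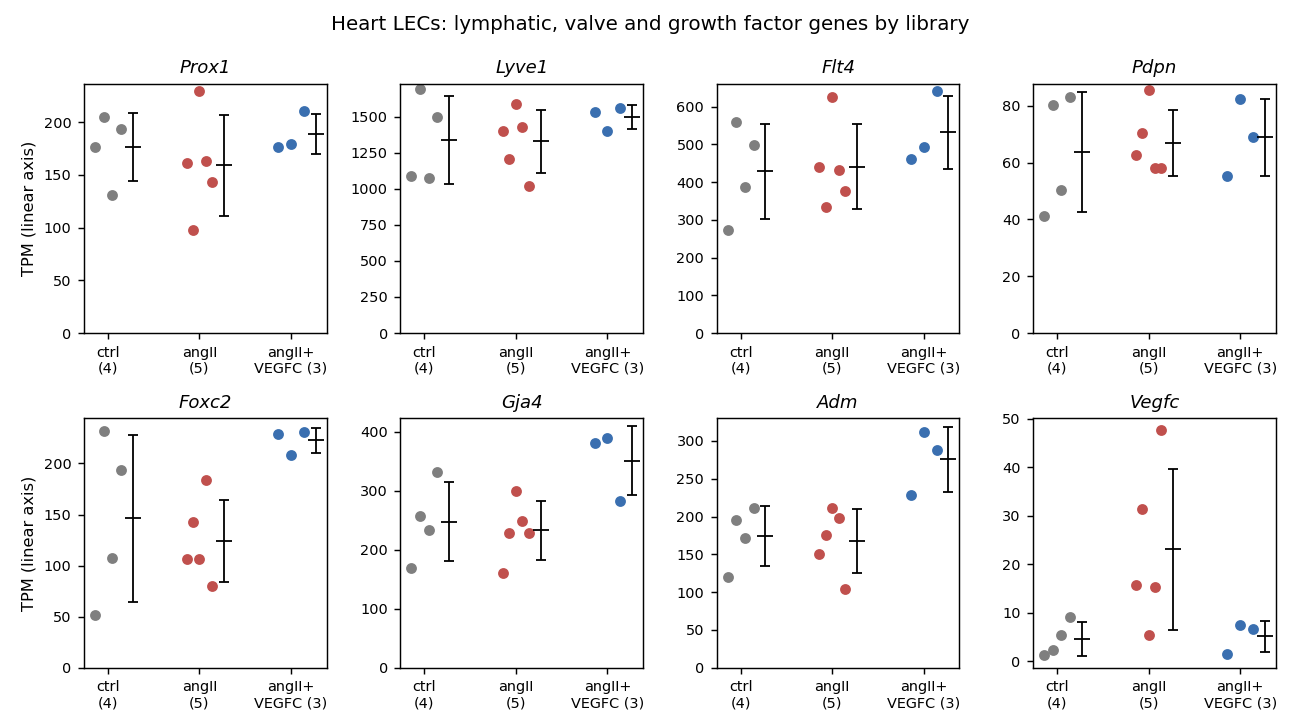
TPM (linear axes) of 8 genes in the 12 heart LEC libraries, with 1 point per library and the mean ± SD beside each group. Prox1, Lyve1, Flt4 and Pdpn overlap between angII and angII+VEGFC, Foxc2 and Adm are higher in all 3 angII+VEGFC libraries (208.8 to 231 and 228 to 312 TPM) than in the 5 angII libraries, and Vegfc is high in 4 of the 5 angII libraries.

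Genes of lymphatic valves and collecting vessels gave higher values in part. Of the 17 genes on this list, 3 were higher (17.6%, against 1.09% of all genes and 4.39% of genes at 100 TPM or more) and 1 lower. The median of -0.05 turned to 0.03 with quantile normalisation. Foxc2, the transcription factor that governs valve formation, lay at 107, 143, 107, 184 and 80.5 TPM with angII and at 229, 209 and 231 TPM with VEGFCc156s added. The groups did not overlap, while ctrl libraries ranged from 51.8 to 231 TPM, and the log2 change of 0.67 ± 0.31 had an adjusted p of 0.46 in limma. The estimate was 0.32 without angII+VEGFC library 2 and 0.11 with the number of detected genes as a covariate. Gja4, which encodes connexin 37 of valve cells, lay at 161, 228, 299, 248 and 228 TPM and at 380.4, 390.4 and 283 TPM (log2 change 0.76 ± 0.23, adjusted p = 0.41 in limma), with overlap between 1 library of each group. Gata2, which acts upstream of valve genes, had 122.5 ± 22.6 and 155 ± 13.2 TPM, and its estimate of 0.51 was 0.03 with the number of detected genes as a covariate. Gja1, connexin 43, had 382.5 ± 40.2 and 322 ± 55.8 TPM, with a change of -0.47.

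The VEGF ligand and receptor genes gave 2 lower and 0 higher of 13 (15.4% lower, against 9.75% of all genes). Their median was -0.21 against -0.37 over all genes, or -0.14 against 0.01 with quantile normalisation. The mouse gene Vegfc, the endogenous counterpart of the infused human factor, lay at 15.7, 31.3, 5.39, 15.3 and 47.7 TPM with angII, at 1.43, 7.35 and 6.53 TPM with VEGFCc156s added and at 1.17 to 9.10 TPM in ctrl libraries. The angII libraries were high in 4 of 5, and the third overlapped the other groups (log2 change -1.90 ± 0.76, adjusted p = 0.43 in limma). Nrp1, a co-receptor of VEGF-A and semaphorins, lay at 138, 236, 67.7, 102 and 359 TPM and at 63.8, 56.5 and 72.5 TPM. In ctrl hearts both genes were lower in LECs than in BECs, with differences of -4.66 for Vegfc and -3.60 for Nrp1 on the log2 scale, and in both the highest values were in angII libraries 2 and 5, which also had the highest blood endothelial marker sums. Kdr, VEGFR-2, had 412 ± 72.3 and 349.7 ± 54.6 TPM, and Vegfa 22.7 ± 7.66 and 14.6 ± 2.95 TPM. Angpt2, an angiopoietin that LECs make, had 136 ± 27.04 and 187 ± 78.3 TPM, its highest value of 274 TPM being in angII+VEGFC library 2. Of the 7 angiopoietin and Tie genes, only Svep1, a matrix ligand of Tie1, passed an unadjusted p of 0.05 (14.3%, against 9.75% of all genes), at 11.0 ± 3.45 and 3.32 ± 2.28 TPM. The list's median was -0.44.

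VEGFR-3 signals through ERK, and ERK induces feedback genes that lower its own activity. Of 14 such genes 0 were higher and 2 were lower (14.3%, against 9.75% of all genes). The median of -0.31 was close to the -0.37 of all genes, but with quantile normalisation it was -0.33 against 0.01. Errfi1, an inhibitor of EGF receptor signalling, lay at 173, 106, 104, 113 and 93.2 TPM with angII and at 47.5, 109.9 and 82.2 TPM with VEGFCc156s added, and Spred2, an inhibitor of Ras to ERK signalling, at 7.37 to 12.3 TPM and 3.59 to 5.68 TPM. Ier3 lay at 447 to 584 TPM and 379 to 427 TPM without overlap, but with an adjusted p of 0.56 in limma, and Egr1 at 2870.3 ± 339 and 2407 ± 505 TPM.

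Growth genes showed no common direction. In the cell cycle list of 26 genes, 3 were lower (11.5%, against 9.75% of all genes) and 1 higher, and the median of -0.33, close to the -0.37 of all genes, was 0.02 with quantile normalisation. Ccnd1, cyclin D1, a mitogen-induced gene of the G1 phase, lay at 77.4, 61.1, 94.996, 87.6 and 94.2 TPM and at 141, 129 and 70.3 TPM (log2 change 0.75 ± 0.24, adjusted p = 0.41 in limma). The mitotic and S-phase genes Birc5, Rrm2 and Top2a were at or below 16.1 TPM in every angII library, and in all 3 angII+VEGFC library 2 was the highest of its group (9.29, 11.5 and 13.9 TPM), so their negative estimates turned positive within batch 1. Of 24 MYC and ribosome biogenesis genes, 2 were higher (8.33%, against 1.09% of all genes), 1 was lower and the median was 0.13. Wdr43, a ribosome assembly factor, lay at 20.1, 10.3, 14.7, 17.7 and 23.6 TPM and at 31.1, 54.8 and 30.7 TPM, without overlap. Rrp9 had 36.3 ± 7.27 and 51.4 ± 10.2 TPM. The paper's causal reasoning predicted the MYC family factor MYCN as an activated upstream regulator in LECs with VEGFCc156s. That prediction concerns activity inferred from other genes, which is another measure than the Mycn transcript. Mycn lay at 19.6, 23.5, 12.1, 13.7 and 37.9 TPM and at 0.785, 15.1 and 15.2 TPM (log2 change -1.54 ± 0.69). The estimate was -0.08 when angII+VEGFC library 1 was left out. Myc had 235 ± 91.2 and 289.9 ± 42.7 TPM. Of 86 cytosolic ribosomal protein genes, 76 had a positive estimate, and the median was 0.17, or 0.10 with quantile normalisation. At an unadjusted p under 0.05, 4 were higher (4.65%, against 1.09% of all genes). This share was close to the 4.39% of all genes at 100 TPM or more. Rpl12 had 186 ± 33.8 and 241 ± 41.3 TPM.

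Of 27 interferon response genes tested, 25 had a negative estimate, and 5 were lower (18.5%, against 9.75% of all genes) and 0 higher at an unadjusted p under 0.05. Their median of -0.41 was close to the -0.37 of all genes, most of which thus had a negative estimate too. With quantile normalisation the median of the list was -0.31, against 0.01 over all genes. Interferon-stimulated factors bind a repeat of GAAA letters upstream of such genes, and the core GAAANNGAA was searched on both strands of RefSeq promoter windows of 300 bases (250 before to 50 after the start, GRCm38.p6). It was present in 8.56% of all 32851 windows and in 62.5% of the 24 windows of interferon genes tested, or, per gene with a window, in 9.76% of 27025 genes and in 15 of 21 interferon genes. Of the 5 lower interferon genes 3 had a window and 1, Cxcl10, held the core; Oas2 and Rtp4 had no window. Among the list genes reported here it was found in Cxcl10, Isg15 and Bst2, which are shown with the core in capitals and read along the gene's own strand (genome minus strand), beginning 213, 72 and 124 bases before the start.
Cxcl10 chr5:92349074-92349122 : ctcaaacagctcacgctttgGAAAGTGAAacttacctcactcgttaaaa
Isg15 chr4:156200862-156200910 : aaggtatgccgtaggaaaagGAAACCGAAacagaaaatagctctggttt
Bst2 chr8:71537568-71537616 : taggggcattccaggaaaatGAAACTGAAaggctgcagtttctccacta
The windows of Oasl2 and Xaf1 held no match.

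Cxcl10, a chemokine that attracts T cells and is a standard interferon response gene, lay at 50.8, 27.2, 16.1, 14.9 and 56.5 TPM with angII and at 4.09, 2.45 and 5.55 TPM with VEGFCc156s added. All angII+VEGFC libraries were below all angII libraries, and ctrl libraries were at 5.04 to 8.57 TPM apart from 48.3 TPM in ctrl library 3. The log2 change was -2.23 ± 0.65 (95% interval -3.61 to -0.85) with an adjusted p of 0.41 in limma. Oas2, an antiviral oligoadenylate synthetase, lay at 11.9, 11.5, 5.03, 3.80 and 16.9 TPM and at 2.42, 0.322 and 1.29 TPM. Rtp4, an interferon-induced regulator of innate immunity, lay at 46.5, 85.1, 42.1, 37.1 and 101 TPM and at 18.7, 32.9 and 27.2 TPM, and Oasl2 at 9.78 to 34.9 TPM and 8.35 to 9.70 TPM. All 4 were without overlap between the groups. Isg15 (187 ± 64.4 and 121 ± 23.3 TPM) and Bst2 (502 ± 98.6 and 416 ± 61.2 TPM), which carry the motif shown, overlapped, both with an adjusted p of 0.55 in limma. In ctrl hearts Cxcl10, Oas2, Rtp4 and Oasl2 were lower in LECs than in BECs, with differences of -4.06 to -2.45 on the log2 scale, against -0.77 for Isg15 and -0.17 for Bst2.

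**Figure D4:**
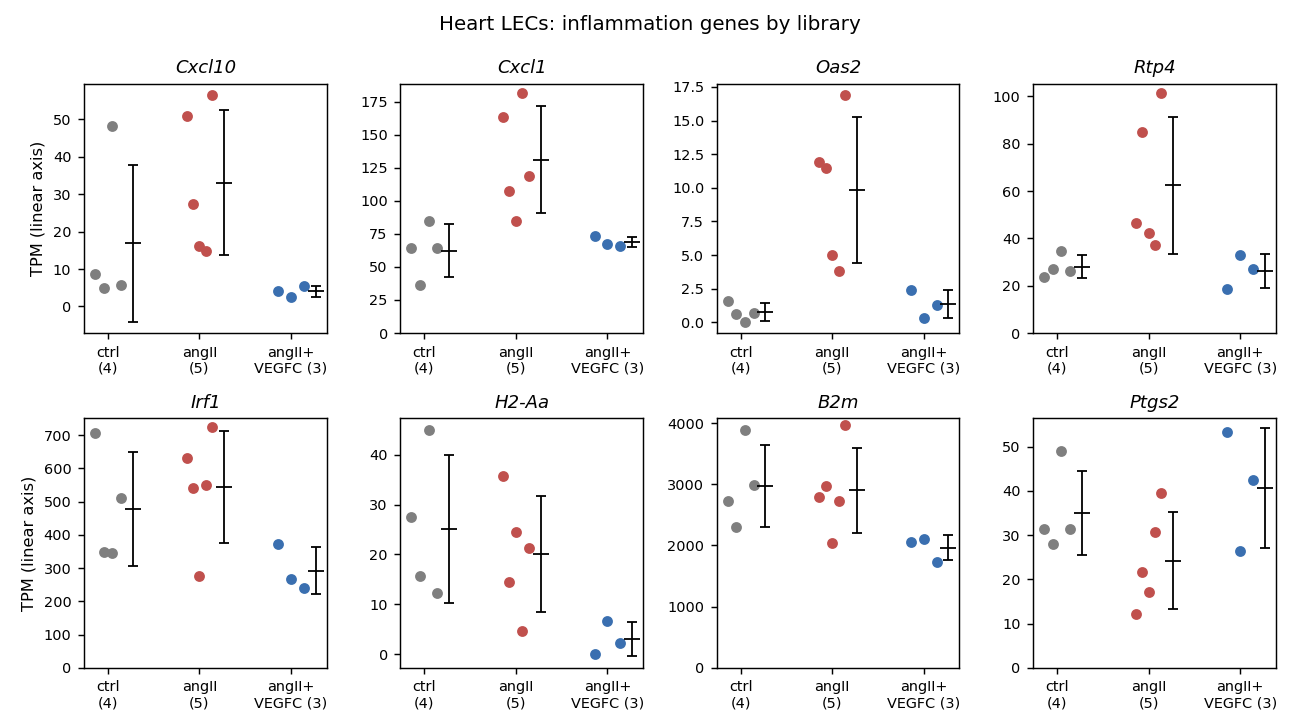
TPM (linear axes) of 8 inflammation genes in the 12 heart LEC libraries, with 1 point per library and the mean ± SD beside each group. Cxcl10, Cxcl1, Oas2 and Rtp4 are lower in all 3 angII+VEGFC libraries than in the 5 angII libraries, Irf1, H2-Aa and B2m overlap between the groups, and Ptgs2 is higher on average with VEGFCc156s added (40.7 against 24.2 TPM).

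Of 29 chemokine ligands tested, 6 were lower (20.7%, against 9.75% of all genes), namely Cxcl10, Cxcl11, Ppbp, Cxcl12, Cxcl1 and Ccl28, and 1, Ccl6, was higher (3.45%, against 1.09%). The median was -0.13 against -0.37 over all genes, or 0.15 against 0.01 with quantile normalisation, with 12 positive and 17 negative estimates. Cxcl1, which attracts neutrophils, lay at 164, 107, 85.0, 181 and 119 TPM with angII and at 73.2, 67.4 and 65.5 TPM with VEGFCc156s added, and Cxcl12, the ligand of CXCR4, at 57.4 to 135 TPM and 42.5 to 52.6 TPM. Both were without overlap and had log2 changes of -0.74 and -0.83. Cxcl11 is annotated as a polymorphic pseudogene and stayed at or below 3.94 TPM. Ccl6 stood at 14.2, 1.06 and 11.5 TPM in the angII+VEGFC libraries, and libraries 1 and 3 were also those with the higher leukocyte marker sums of that group (387 and 135 TPM). Ccl22, another chemokine of the study, was listed at 0 in every library of both groups except angII library 3 (2.67 TPM) and was not tested. Of 19 genes of Toll-like receptors and their adaptors 1 was lower (5.26%, against 9.75% of all genes), the adaptor gene Tirap, at 13.3 ± 5.78 and 7.60 ± 3.37 TPM, with a list median of -0.16 that became 0.07 with quantile normalisation. Tlr3, a receptor of double-stranded RNA, had 22.4 ± 5.65 and 18.8 ± 3.96 TPM, and Tlr4, the receptor of lipopolysaccharide, 5.30 ± 0.933 and 4.52 ± 1.347 TPM, both with overlap.

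NF-kB response genes gave 4 lower and 1 higher of 26 (15.4% lower, against 9.75% of all genes). Their median was -0.28 against -0.37 over all genes, or -0.18 against 0.01 with quantile normalisation. Irf1, a transcription factor that both NF-kB and interferon induce, lay at 631, 539.5, 275, 551 and 725 TPM with angII and at 372, 266 and 240.0 TPM with VEGFCc156s added (log2 change -0.92 ± 0.33, adjusted p = 0.42 in limma). The third angII library lay among the angII+VEGFC libraries. Tnf lay at 4.31 to 10.9 TPM and 0 to 2.34 TPM and Birc3, an inhibitor of cell death, at 19.2 to 39.0 TPM and 12.2 to 19.1 TPM, both without overlap. Ptgs2, cyclooxygenase 2, went the other way, at 12.1, 21.6, 17.2, 30.6 and 39.5 TPM and at 53.3, 26.4 and 42.5 TPM. Icam1, the adhesion molecule of leukocytes, had 405 ± 88.3 and 316 ± 103 TPM with an adjusted p of 0.57 in limma.

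The summed level of the 19 antigen presentation and checkpoint genes was lower in every angII+VEGFC library (5748, 6174 and 5416 TPM) than in every angII library (7365, 7588, 6358, 7750 and 10663 TPM), and ctrl libraries were at 6962 to 10971 TPM. Of the genes, 3 were lower (15.8%, against 9.75% of all genes) and 0 higher. A negative estimate was found for 16 of 19, and also for most of all genes tested. The list median was -0.42, close to the -0.37 of all genes, but with quantile normalisation it was -0.38 against 0.01. H2-Aa, the alpha chain of MHC class II, lay at 35.7, 14.5, 24.4, 4.59 and 21.3 TPM with angII and at 0, 6.77 and 2.28 TPM with VEGFCc156s added (log2 change -2.48 ± 0.49, adjusted p = 0.27 in limma), and it differed little between LECs and BECs in ctrl hearts (-0.37). H2-Ab1, its beta chain, lay at 11.3 to 77.9 TPM and 3.83 to 9.72 TPM. MHC class II is also a mark of antigen-presenting leukocytes, which the sort against CD45.2 was meant to remove. Leukocyte markers went both ways, with 6 positive and 6 negative estimates, a median of -0.05 (0.44 with quantile normalisation) and median sums of 69.3 TPM with angII and 135 TPM with VEGFCc156s added. Their part in the MHC class II values was not tested. Psmb8, an immunoproteasome subunit, had 163 ± 46.4 and 91.9 ± 15.5 TPM. The MHC class I genes B2m (2900.2 ± 693 and 1964 ± 204 TPM) and H2-D1 (2648 ± 437 and 2108 ± 173 TPM) had smaller estimates of -0.39 and -0.21.

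Of 14 leukocyte adhesion genes 3 were lower (Jam2, Cd34 and Jam3; 21.4%, against 9.75% of all genes), and of 18 endothelial junction genes 1, Esam, was lower (5.56%). The list medians were -0.14, which became 0.07 with quantile normalisation, and -0.08. Jam2, a junctional adhesion molecule, lay at 103, 163, 69.3, 70.7 and 268 TPM with angII and at 43.2, 33.5 and 27.9 TPM with VEGFCc156s added. Esam, an adhesion molecule of endothelial junctions, lay at 294, 491, 216, 240.0 and 556 TPM and at 142, 184 and 153 TPM. Both were without overlap, with log2 changes of -1.47 and -1.11, and libraries 2 and 5 were again the highest. In ctrl hearts the difference of LECs from BECs was -3.59 to -2.59 for these 4 genes.

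Matrix genes had values in both directions. Of 35 collagen chains 7 were lower (20%, against 9.75% of all genes) and 1 higher, with a median of -0.70, or -0.28 with quantile normalisation. Col1a2, a chain of fibrillar collagen I, lay at 61.4, 35.3, 36.3, 92.4 and 57.2 TPM with angII, at 4.78, 17.1 and 11.2 TPM with VEGFCc156s added and at 2.22 to 12.4 TPM in ctrl libraries (log2 change -2.44 ± 0.50, adjusted p = 0.38 in limma). Col3a1 lay at 44.2 to 203 TPM and 16.5 to 42.3 TPM, and the fibroblast marker Lum at 36.5 to 88.7 TPM and 19.6 to 29.5 TPM. All 3 were lower in LECs than in BECs of ctrl hearts, with differences of -2.38 to -1.73. Col18a1, the chain from which endostatin is cut and which LECs carried above BECs by 2.42, lay at 266, 164, 309.9, 281 and 199 TPM and at 351, 338 and 346 TPM, the angII+VEGFC libraries being all higher. Col4a1 of the basement membrane had 463 ± 55.2 and 411 ± 112 TPM.

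Of 34 matrix glycoprotein and remodelling genes 3 were higher and 3 lower (8.82% each, against 1.09% and 9.75% of all genes), with a median of -0.19. Of genes at 100 TPM or more, 4.39% were higher. The higher ones, Ltbp1, Fn1 and Postn, were above BECs in ctrl LECs by 2.25 to 4.74. Ltbp1, which stores latent TGF-beta in the matrix, lay at 104, 85.3, 123.3, 197 and 127 TPM with angII and at 329, 199 and 190.2 TPM with VEGFCc156s added (log2 change 1.13 ± 0.25, adjusted p = 0.41 in limma). Fn1, fibronectin, lay at 182 to 341 TPM and at 464, 700.2 and 296 TPM, and Postn, periostin, at 199.6 to 918 TPM and at 878, 1371 and 518 TPM. The groups overlapped in all 3 genes, and angII+VEGFC library 2 had the highest Fn1 and Postn of all 8 libraries. Without it the change was 0.49 for Fn1 and 0.61 for Postn, against 0.94 and 1.18 with it. Sparc, Lox and Ccn5, matrix genes of stromal cells, were the lower ones, and LECs carried them below BECs. Ccn5 lay at 11.7 to 31.2 TPM and 3.78 to 4.53 TPM and Lox at 6.65 to 15.1 TPM and 0 to 6.61 TPM, both without overlap. Pdgfra and Dcn were listed as fibroblast markers, yet LECs of ctrl hearts carried them above BECs. Pdgfra was the 1 higher gene of that list, at 17.8 to 57.6 TPM and 58.9 to 69.9 TPM without overlap, and Dcn, decorin, had 833 ± 298 and 1033 ± 179.9 TPM with an adjusted p of 0.47 in limma. Of 20 TGF-beta pathway genes 1, the co-receptor Eng, was higher (5%, against 1.09% of all genes and 4.39% of genes at 100 TPM or more). Eng had 445 ± 133 and 578 ± 34.4 TPM, and its estimate of 0.57 became -0.04 with the number of detected genes as a covariate. The list median was 0.04. Smad2 lay at 22.1 to 40.4 TPM and 47.7 to 60.8 TPM without overlap, with an adjusted p of 0.59 in limma.

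Genes of adrenomedullin, apelin and nitric oxide signalling included 3 lower and 1 higher of 17 (17.6% and 5.88%, against 9.75% and 1.09% of all genes), with a median of -0.09. Of genes at 100 TPM or more, 4.39% were higher. Adm encodes adrenomedullin, a peptide needed for lymphatic growth and barrier function, and lay at 151, 176, 212, 198 and 104 TPM with angII and at 228, 312 and 288 TPM with VEGFCc156s added. All angII+VEGFC libraries were above all angII libraries and all ctrl libraries (120.2 to 211 TPM), with a log2 change of 0.71 ± 0.27 and an adjusted p of 0.42 in limma. Apln, the apelin peptide, lay at 7.86, 17.2, 4.42, 3.14 and 17.4 TPM and at 0, 1.10 and 2.17 TPM, and Aplnr, its receptor, at 44.8, 70.8, 27.6, 30.5 and 122 TPM and at 5.20, 2.01 and 14.2 TPM. Both were without overlap and had changes of -2.96 and -2.67. Ramp3, a subunit of the adrenomedullin receptor, had 37.5 ± 17.5 and 14.3 ± 7.19 TPM. Adm was carried by LECs and BECs of ctrl hearts at a like level (0.53 higher in LECs), whereas Apln, Aplnr and Ramp3 were lower in LECs, with differences of -4.60 to -2.53. Of 14 sphingosine 1-phosphate and semaphorin genes 2, S1pr3 and Sema3c, were lower (14.3%, against 9.75% of all genes) at or below 42.4 TPM, and the list median was 0.00.

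Of 22 fatty acid genes 2 were lower (9.09%, close to the 9.75% of all genes), Fabp5 (352 ± 203 and 148 ± 42.4 TPM) and Cpt1a (45.3 ± 6.40 and 33.0 ± 18.0 TPM), and Cpt1a rested on 12.5 TPM in angII+VEGFC library 1 (change -0.04 without it). Of 79 nuclear oxidative phosphorylation genes 2 were higher (2.53%, against 1.09% of all genes and 4.39% of genes at 100 TPM or more). Of the same list 1 was lower, and its median was 0.07. The 13 mitochondrially encoded genes had the highest median of the 33 lists, 0.55, with 12 positive estimates. At an unadjusted p under 0.05, 2 were higher (15.4%, against 1.09% of all genes and 4.39% of genes at 100 TPM or more). Of these, mt-Nd3 lay at 889 to 1559.9 TPM and at 4119, 973 and 2044 TPM, so that the estimate of 1.24 was carried by angII+VEGFC libraries 1 and 3 and was -0.32 within batch 1. Of 21 immediate early genes, which also report stress of dissociation, 1, Nr4a1, was lower (4.76%, against 9.75% of all genes; 819 ± 249.7 and 616 ± 114 TPM), with a list median of -0.18. In the angiotensin pathway 2 of 10 genes tested were lower (20%, against 9.75% of all genes), both at or below 8.51 TPM. Agtr1a, the main angiotensin II receptor, was listed at 0 in all angII+VEGFC and all ctrl libraries and at 0.153 to 3.26 TPM in the angII libraries.

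The same contrast was made in the other endothelial cells. In heart BECs, 1.12% of 21281 genes were lower and 1.47% higher at an unadjusted p under 0.05, with a median change of 0.03. In diaphragm LECs 7.66% of 23839 genes were lower and 1.12% higher, with a median of -0.21. The difference in change between heart LECs and heart BECs was tested as an interaction of cell type and treatment. The test took the 24 libraries as independent, although the cell types share mice. It passed an adjusted p of 0.05 for 0 of 29402 genes. At an unadjusted p under 0.05 the change was more negative in heart LECs for 7.25% and more positive for 0.616% of them, and with quantile normalisation 731 genes were more negative and 722 more positive. Against diaphragm LECs it passed for 0 of 31319 genes, with 1.6% more negative and 1.17% more positive in heart LECs.

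The changes in both cell types are given side by side for single genes. The change of Aplnr was -2.67 in heart LECs and -0.09 in heart BECs (difference -2.84 ± 0.73, adjusted p = 0.50 in limma), that of Col1a2 -2.44 and 0.21, and that of Cxcl12 -0.83 and 0.35. For Cxcl10 it was -2.23 and -0.998, with mean levels in BECs of 166 TPM with angII and 89.4 TPM with VEGFCc156s added, and the difference had an adjusted p of 0.64 in limma. Irf1 was negative in both cell types (-0.92 and -0.53). Foxc2 had 0.67 and -0.41 (difference 1.17 ± 0.51), Wdr43 1.19 and 0.06, and Adm 0.71 and -0.01 (difference 0.81 ± 0.30), each with an unadjusted p under 0.05 and an adjusted p of 0.58 or more for the difference. In diaphragm LECs the changes of Adm, Gja4 and Foxc2 were 0.41, 0.16 and 0.37, and those of Cxcl10, Aplnr and Jam2 were -0.61, -0.89 and -1.81. The difference between heart and diaphragm had an unadjusted p above 0.05 for these 6 genes.

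**Figure D5:**
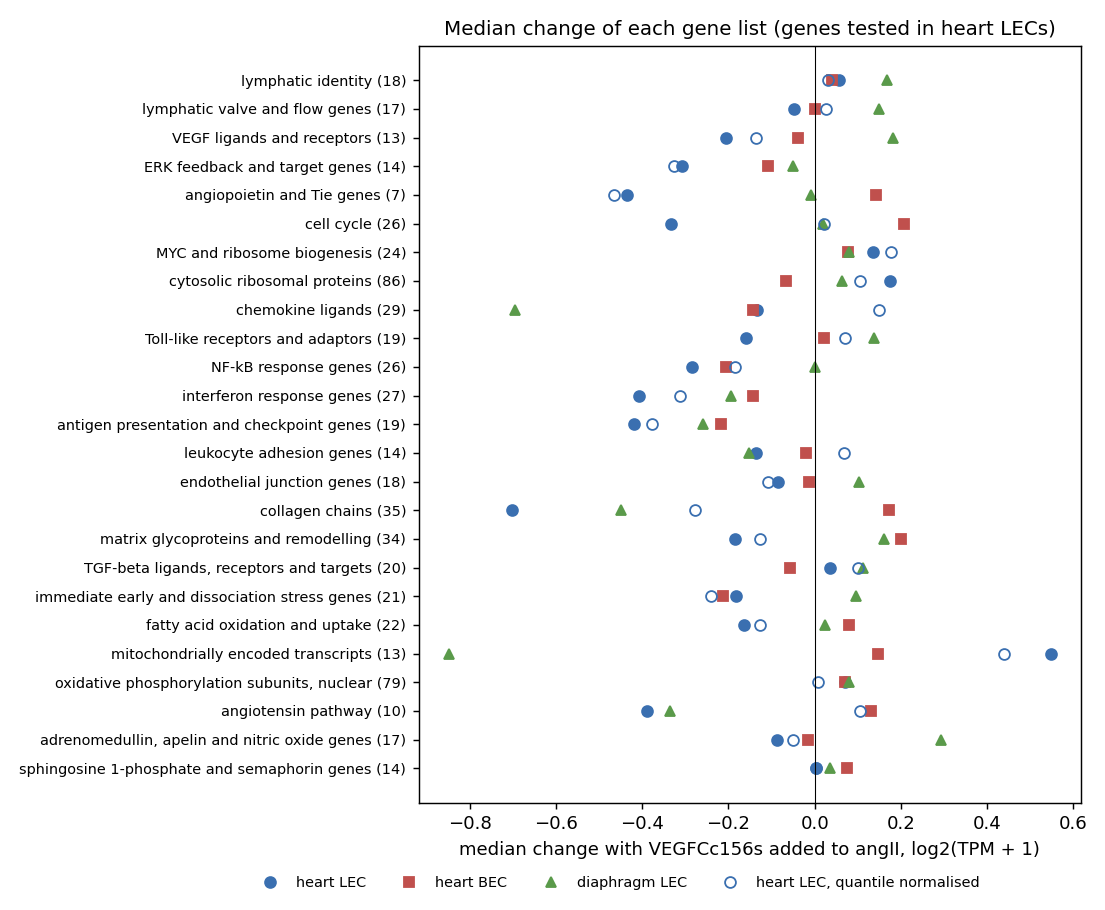
Median change with VEGFCc156s added to angII (x axis, log2(TPM + 1)) of 25 gene lists in heart LECs, heart BECs and diaphragm LECs, with the heart LEC median under quantile normalisation as an open circle and the number of genes tested in heart LECs in brackets. Collagen chains (-0.70), antigen presentation genes (-0.42) and interferon response genes (-0.41) are among the lowest in heart LECs, lymphatic identity genes lie near 0 in heart LECs and heart BECs, and mitochondrially encoded transcripts are highest in heart LECs (0.55) against -0.85 in diaphragm LECs.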

How the data were processed

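RNA of sorted heart LECs was sequenced with a low-input kit that does not mark strand. The deposited values are TPM per gene (transcript abundance scaled to a common total), which the authors made with STAR 2.5.3a and Salmon 0.12.0 on GRCm38 and Ensembl 95. They hold no read counts, so the depth of a library is unknown and no counting interval is given. The authors tested counts with DESeq2, with age, batch and surrogate variables, which was not repeated here because TPM are not counts. The labels give ages in months and the study's methods in weeks (9 to 15), and the labels were used.

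Values were taken as log2(TPM + 1), so changes of low genes are understated. Of 54752 genes, those at 1 TPM or more in 3 of 12 heart LEC libraries were fitted with limma 3.58.1 (R 4.3.3, trended variance, Benjamini-Hochberg adjustment) in all 12 libraries with age and batch as covariates. Changes are therefore adjusted for both and can differ from ratios of the means. Library measures were compared with exact permutation tests (scipy 1.17.1). Heart LEC and BEC libraries share mice by the animal number in the labels, as do most diaphragm LEC libraries. The interaction values given for single genes take libraries as independent. Each interaction was also fitted with the mouse as a block. The 8 libraries compared come from different mice and have no pairs.

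The genes and gene lists were chosen with earlier results of these data known. Named were the sort and lineage genes, genes named or followed up in the study, and genes with an adjusted p under 0.05 in any fit. Added were the 10 non-overlapping genes of smallest p in each direction at 10 TPM or more in the higher group (without Gm and Rik symbols). From each list up to 3 members of highest level and of smallest p were named. Members without a difference are covered by their list's counts. Scripts were tested on simulated data. Alternatives were another pseudocount, filter, normalisation, covariates (among them 1 surrogate variable from a singular value decomposition of residuals), libraries and batches.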

Additional observations from a re-analysis of the deposited data

Results flagged for a closer look

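Of 262 sets of 4 or 5 libraries of 1 group, taken for 127 genes, 15 held a library that stood apart from the others by Dixon's criterion, where chance gives about 13.1 (1 in 20). Angiotensin II libraries held 8 of these and ctrl libraries 7. No explanation was tested.

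Among the angII libraries, library 1 had 173 TPM of Errfi1 (next 113), 56.0 TPM of Vtn (next 19.5) and 42.4 TPM of S1pr3 (next 14.0). Library 2 had 12.0 TPM of Ppbp (next 3.86), 105.9 TPM of Timp4 (next 34.7), 1574 TPM of Gpihbp1 (next 1054) and, as the lowest, 1.71 TPM of Alas2 (next 5.79). Library 5 had 67.8 TPM of Ramp3 (next 35.0). Timp4 and Gpihbp1 are on the list of blood endothelial markers, so their own values enter its sums, which were highest in libraries 2 and 5.

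Among the ctrl libraries, which enter the comparison only through the covariates and the spread, library 3 had 48.3 TPM of Cxcl10 (next 8.57), 49.0 TPM of Ptgs2 (next 31.4), 30.1 TPM of S1pr3 (next 5.43) and, as the lowest, 213 TPM of Gja1 (next 348). Library 1 had 5.61 TPM of Tnf (next 0.185), 78.8 TPM of Kcnj8 (next 34.1) and 6.41 TPM of Alas2 (next 0.644).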

How the results depend on the processing

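The count of genes past an adjusted p of 0.05 was 0 under each other pseudocount, filter and normalisation, without covariates and with the number of detected genes as a covariate, 1 with 1 surrogate variable (Rpl31-ps9), 5 in the fit of the 8 libraries alone and 0 to 2 with single libraries left out (2 without ctrl library 1); within batch 1 alone it was 3. Genes lower at an unadjusted p under 0.05 numbered 542 with a filter at 10 TPM, 1714 without covariates, 895 with the number of detected genes as a covariate, 944 with quantile normalisation and 1565 (without angII+VEGFC library 2) to 3523 with single libraries left out, against 2614. Higher genes numbered 549 without a filter, 171 without covariates, 648 with the number of detected genes, 878 with quantile normalisation and 511 with the 8 libraries, against 292. Pairing by mouse (replicate block), the interaction with heart BECs passed for 0 genes at an adjusted p of 0.05 and had 2675 at an unadjusted p under 0.05 (2459 more negative), against 2313; with a pseudocount of 0.1 it passed for 1 gene. With diaphragm LECs the block gave 0 and 1042, against 867. The block changed no other call.

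Of 2780 values for 127 genes, 2745 kept their direction and their side of the adjusted threshold, 11 passed it and 24 changed direction, in 16 genes. The direction changed within batch 1 for Pdpn (0.28), Birc5 (0.34), Rrm2 (0.73), Top2a (0.14), Ccl6 (-0.27), Col4a1 (0.27), Cpt1a (0.14), mt-Nd3 (-0.32) and mt-Atp6 (-0.45), and within batch 2 for Kdr (0.015) and Rpl32 (-0.039). It changed with the number of detected genes for Top2a (0.12), Tlr4 (0.11), Eng (-0.037) and Kcnj8 (0.080), with quantile normalisation for Tlr4 (0.34), and for Pdpn without covariates (0.038) and with the 8 libraries (0.079). With single libraries left out the range was -0.028 to 0.16 for Lyve1, -0.30 to 0.22 for Pdpn and -0.033 to 0.50 for Angpt2. Of 724 list medians 30 moved by more than the spread, in 17 lists. The cause of these differences was not tested. Batch 1 holds 1 angII+VEGFC library, which is assumed to vary like the others. Depth is unknown, so no limit from depth can be given.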
